A study of Mus musculus with 11 samples.

Results

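Macrophages and other myeloid cells express a set of genes, some of them shared with other cell types. Of such genes, 32 were followed in RNA-seq of cultured mouse fetal lung mesenchymal cells. All 32 symbols had a row among the 24062 genes of the count files. The set was chosen by gene symbol, with earlier results of these data known. It holds the 3 subunits of complement C1q, the receptor Csf1r and transcription factor Spi1, scavenger and pattern receptors, Fc receptors with their signaling adaptors, chemokine receptors, lysozymes and other microbicidal proteins, genes shared by most leukocytes, the calcium-binding protein Aif1 and the MHC class II chaperone Cd74. Csf1r, C1qb and Cd68 served as markers of the cell type.

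The cells came from embryonic day 15 (E15) lungs. They were freed with collagenase, taken by their rapid adhesion to plastic, and passaged 2 times before RNA was extracted, and no sort against leukocytes was described. The 11 libraries were 4 from Sp3+/+ (WT) cultures, 4 from Sp3+/- cultures and 3 from Sp3-/- cultures. Sp3 is a zinc finger transcription factor that binds GC boxes, and the Sp3 alleles are constitutive, so every cell of a culture, macrophages included, carries the same genotype. All library titles hold the letters CTRL. The first number of a title (468, 685 or 697) is shared between genotypes, and the labels do not say whether it marks a litter, nor whether a library is 1 embryo or a pool, so p-values measure the spread between these libraries. Titles also differ in a last number, here called the suffix. It is 2 or 3 in 3 WT libraries (685-2, 697-1, 697-3) and 3 Sp3+/- libraries (468-3, 685-5, 685-7), and missing in WT 468-4, Sp3+/- 697-4 and all 3 Sp3-/- libraries (685-1, 697-2, 697-5). The file of Sp3+/- 697-4 carries a suffix in its name that its title lacks. What the suffix means is not stated.

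Macrophages reach the fetal lung from the yolk sac and fetal liver and live among its mesenchyme. They depend on signaling through Csf1r, whose ligand colony stimulating factor 1 is made by mesenchymal cells, and on the transcription factor PU.1, which Spi1 encodes. They adhere firmly to plastic and clear dying cells, using C1q, scavenger receptors and Fc receptors to recognize what they engulf. In RNA from a whole culture, more macrophages and more RNA of these genes per macrophage cannot be told apart.

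Reads counted on genes ranged from 9849111 in Sp3-/- 697-5 to 59297495 in Sp3+/- 685-5, with a median of 34968482. Levels are CPM, the reads of a gene scaled to a common library total, with library sizes scaled by the trimmed mean of M-values (TMM), and log2 levels add a prior count of 2. Libraries of a genotype differed by more than the noise of counting, the closest pair having a chi-square of 16.6 for each degree of freedom. Sp3 itself ranged from 61.3 to 108 CPM in WT, from 52.4 to 70.8 CPM in Sp3+/- and from 14.8 to 18.7 CPM in Sp3-/- libraries, and was lower in Sp3-/- than in WT (log2 fold change -2.30, edgeR adjusted p = 0.0061). Summed over 12 mesenchymal marker genes, the 6 libraries with a suffix held 20937 to 22323 CPM and the 5 without 7315 to 19053 CPM.

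Promoter sequences are shown for 4 of the genes, because the cultures differ in Sp3, which binds GC boxes, and because PU.1 drives many myeloid promoters. C1qb and Cd68 are markers of the cell type, Lyz2 took the most reads and Aif1 had the largest change between Sp3-/- and WT cultures among the genes that passed the test. Each is the run of 250 bases before the annotated start, taken from RefSeq on GRCm38.p6 and written 5′ to 3′ on the strand of the gene, which is the minus strand for all 4. Capitals mark a GC box (GGGCGG, or CCGCCC on the opposite strand) or a PU.1 core (GAGGAA, or TTCCTC on the opposite strand).
C1qb, chr4:136886201-136886450: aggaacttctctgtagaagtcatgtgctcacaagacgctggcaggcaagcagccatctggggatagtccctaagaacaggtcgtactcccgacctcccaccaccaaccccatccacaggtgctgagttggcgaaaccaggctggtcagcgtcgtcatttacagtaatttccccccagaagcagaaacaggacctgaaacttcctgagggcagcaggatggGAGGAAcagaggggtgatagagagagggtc
Cd68, chr11:69666171-69666420: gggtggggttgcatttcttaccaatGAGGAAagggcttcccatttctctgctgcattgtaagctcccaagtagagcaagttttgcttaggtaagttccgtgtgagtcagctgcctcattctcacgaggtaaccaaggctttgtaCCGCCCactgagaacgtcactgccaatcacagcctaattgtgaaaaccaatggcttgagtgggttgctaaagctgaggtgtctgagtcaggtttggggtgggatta
Lyz2, chr10:117282273-117282522: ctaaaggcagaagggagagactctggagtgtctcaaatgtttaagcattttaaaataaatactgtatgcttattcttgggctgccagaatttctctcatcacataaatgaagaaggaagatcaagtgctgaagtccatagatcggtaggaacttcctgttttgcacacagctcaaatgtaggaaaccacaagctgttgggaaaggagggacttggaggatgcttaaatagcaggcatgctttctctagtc
Aif1, chr17:35176053-35176302: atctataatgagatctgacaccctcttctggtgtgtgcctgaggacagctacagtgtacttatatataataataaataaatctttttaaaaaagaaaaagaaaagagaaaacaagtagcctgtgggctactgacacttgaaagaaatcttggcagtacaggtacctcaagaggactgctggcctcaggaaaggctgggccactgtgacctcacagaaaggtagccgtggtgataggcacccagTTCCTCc
C1qb had a PU.1 core starting 30 bases before the start, Cd68 had 1 at 225 bases and a GC box at 106 bases before it, Aif1 had a PU.1 core at 7 bases before it, and the Lyz2 stretch held none of these letters. Windows of 300 bases, 250 before and 50 after the start, were found for 24 of the 32 genes. None was found for Csf1r, Spi1, C1qa, Tyrobp, Msr1, Cd14, Cd52 or Cd74. The GC box was present for 5 of the 24 genes (20.8%), against 38.2% of all 27025 genes with a window. GAGGAA was present for 13 (54.2%) against 31.3%, and the TATA box (TATAAA) for 2 (8.33%) against 15.7%. These are few genes, and no test was run. All motifs were searched on both strands, a GC box and a PU.1 core can share at most 1 base, and a match describes letters and not binding.

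The share of reads on the 32 genes varied 28.9-fold between libraries, and also widely within a genotype, 5.33-fold in WT, 7.87-fold in Sp3+/- and 3.36-fold in Sp3-/-. In WT it was 0.492% in 468-4, 0.109% in 685-2, 0.0924% in 697-1 and 0.121% in 697-3. In Sp3+/- it was 0.0555% in 468-3, 0.0899% in 685-5, 0.0962% in 685-7 and 0.437% in 697-4. In Sp3-/- it was 0.477% in 685-1, 1.60% in 697-2 and 1.46% in 697-5. WT 468-4 held 4.05 times the share of the next WT library, and Sp3+/- 697-4 held 4.54 times that of the next Sp3+/- library. The lowest Sp3-/- library, 685-1, held 0.97 times the share of WT 468-4, while the other 2 held 3.36 and 3.05 times the share of 685-1. Every library without a suffix lay above every library with one, by at least 3.60-fold. Counting error was small beside these gaps, with a 95% Wilson interval of 0.0542% to 0.0567% for the lowest share (468-3) and 1.60% to 1.61% for the highest (697-2). These intervals cover counting error only.

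The genes differed widely in abundance. Lyz2 took 40.4% to 54.2% of the reads on the set in each library. Compared per kilobase of the canonical transcript, the median level over the 11 libraries was highest for Lyz2 (213 CPM per kb), followed by Tyrobp (44.9), Cd68 (35.3), Mpeg1 (28.1) and C1qa (23.8). At the other end, Cd163, Ccr2 and Cd74 did not exceed 1 CPM in any library and were not tested. Cd163, a hemoglobin scavenger receptor, had at most 4 counts in a library, Ccr2, the receptor that brings blood monocytes into tissue, at most 2, and Cd74 at most 13. Of the 29 genes tested, 24 exceeded 1 CPM in every library. Lyz1 and Aif1 passed only because of the libraries without a suffix, so that a difference between those libraries and the rest was built into their being tested.

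**Figure D1:**
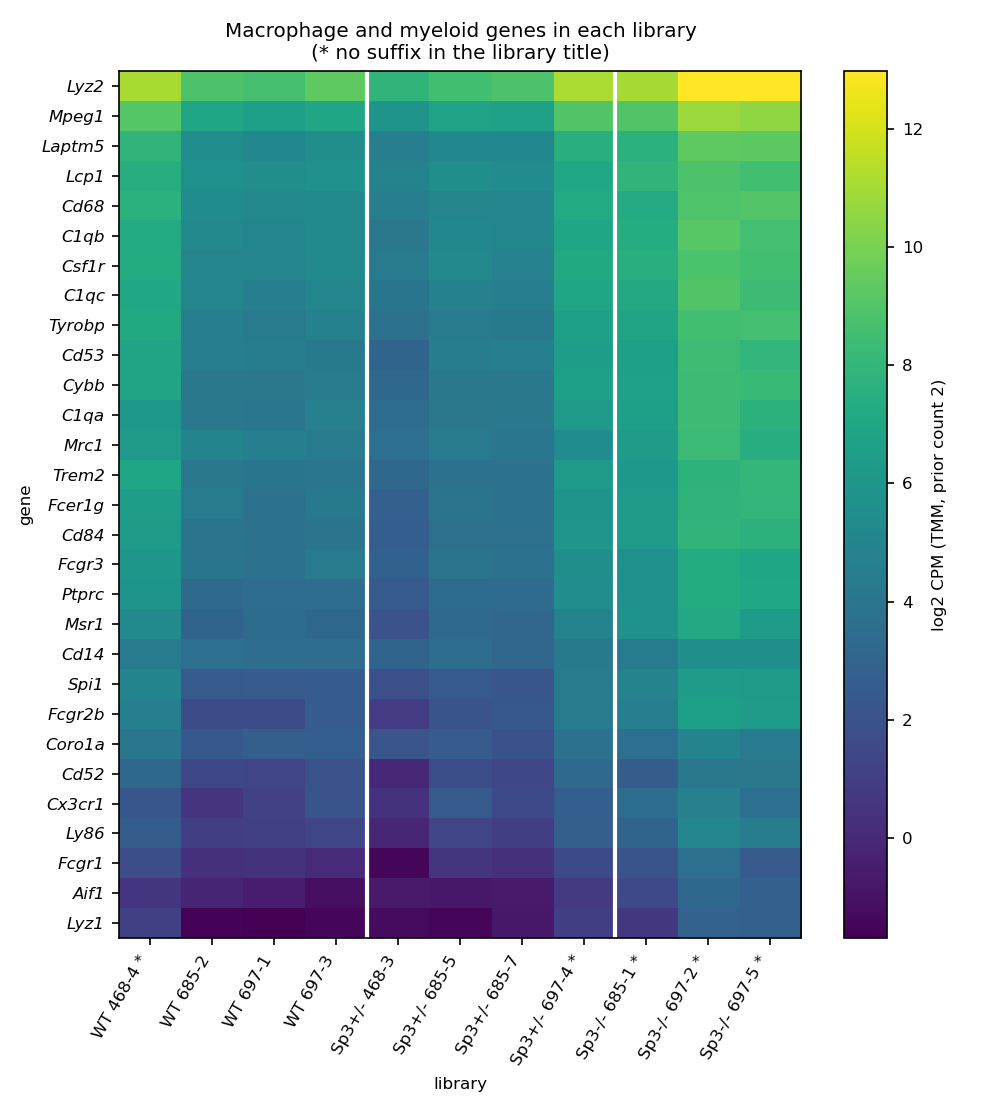
Heat map of the log2 CPM of the 29 tested genes (rows, ordered by mean level) in the 11 libraries (columns, grouped by genotype, an asterisk marking libraries without a title suffix). WT 468-4, Sp3+/- 697-4 and Sp3-/- 685-1 look alike and stand above the 6 libraries with a suffix, and Sp3-/- 697-2 and 697-5 are higher still for nearly every gene.

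The 3 marker genes showed this pattern in full. Csf1r, the receptor tyrosine kinase on which macrophage survival depends, was at 163 CPM in WT 468-4 and at 31.1, 32.03 and 40.1 CPM in WT 685-2, 697-1 and 697-3. In Sp3+/- it was at 21.2, 36.6 and 27.7 CPM in 468-3, 685-5 and 685-7 and at 148 CPM in 697-4, and in Sp3-/- at 179, 458 and 365 CPM in 685-1, 697-2 and 697-5. All 3 Sp3-/- libraries were above all WT libraries, but 685-1 exceeded WT 468-4 only narrowly. Cd68, a lysosomal glycoprotein of phagocytes, was at 206, 42.3, 37.1 and 40.0 CPM in WT 468-4, 685-2, 697-1 and 697-3, at 23.5, 31.9, 32.3 and 153 CPM in Sp3+/- 468-3, 685-5, 685-7 and 697-4, and at 155, 494 and 520 CPM in Sp3-/- 685-1, 697-2 and 697-5. Here the Sp3-/- and WT ranges overlapped, since WT 468-4 was above Sp3-/- 685-1. All 3 markers were present in every library.

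C1q, which tags apoptotic cells and debris for uptake, is built from the products of C1qa, C1qb and C1qc. These lie side by side on chromosome 4 (GRCm38.p6, C1qb at 136880126 to 136886200, C1qc at 136889801 to 136892936 and C1qa at 136895916 to 136898844). C1qb was at 157, 36.4, 32.2 and 38.6 CPM in WT 468-4, 685-2, 697-1 and 697-3, at 17.3, 35.8, 32.2 and 126 CPM in Sp3+/- 468-3, 685-5, 685-7 and 697-4, and at 164, 564 and 388 CPM in Sp3-/- 685-1, 697-2 and 697-5. C1qa and C1qc moved with it, from 11.5 to 323 CPM and from 16.1 to 503 CPM over the 11 libraries. In each of the 3 genes the Sp3-/- libraries lay above all WT libraries.

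Among lysozymes and microbicidal proteins, Lyz2, the lysozyme of macrophages, was the most abundant. It was at 2166, 465, 398 and 639 CPM in WT 468-4, 685-2, 697-1 and 697-3, at 243, 363, 464 and 2201 CPM in Sp3+/- 468-3, 685-5, 685-7 and 697-4, and at 2067, 8039 and 7969 CPM in Sp3-/- 685-1, 697-2 and 697-5. Sp3-/- 685-1 was thus below both WT 468-4 and Sp3+/- 697-4. Lyz1, its neighbor and close copy on chromosome 10, ranged from 0.243 to 7.34 CPM. Reads of 50 bases that fit both genes equally well were not counted, which may lower the levels of the pair. Mpeg1, a pore-forming protein of phagolysosomes, was at 543, 122, 97.4 and 120 CPM in WT 468-4, 685-2, 697-1 and 697-3, at 59.6, 106, 103 and 499 CPM in Sp3+/- 468-3, 685-5, 685-7 and 697-4, and at 510, 1768 and 1469 CPM in Sp3-/- 685-1, 697-2 and 697-5. Of the Sp3-/- libraries of Mpeg1, 685-1 was again below WT 468-4. Cybb, the catalytic subunit of the phagocyte oxidase, ranged from 9.11 CPM in Sp3+/- 468-3 to 324 CPM in Sp3-/- 697-2.

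Of the transcription factor and the receptors that recognize microbes and modified lipids, none left the pattern entirely. Spi1 was at 30.8 CPM in WT 468-4 and 20.3 CPM in Sp3+/- 697-4, between 3.59 and 5.98 CPM in the 6 libraries with a suffix, and at 28.5, 80.6 and 73.9 CPM in Sp3-/- 685-1, 697-2 and 697-5. Mrc1, the mannose receptor, was at 73.2, 30.6, 24.9 and 19.9 CPM in WT 468-4, 685-2, 697-1 and 697-3, at 12.5, 19.8, 16.9 and 42.6 CPM in Sp3+/- 468-3, 685-5, 685-7 and 697-4, and at 81.0, 311 and 171 CPM in Sp3-/- 685-1, 697-2 and 697-5. Msr1, a class A scavenger receptor, ranged from 4.09 to 144 CPM. Cd14, the lipopolysaccharide co-receptor, varied least, 6.10-fold between its lowest and highest library against a median of 28.4-fold over the 29 genes. It was at 21.2 CPM in WT 468-4, 11.6 to 12.6 CPM in the other WT libraries, 20.6 CPM in Sp3-/- 685-1 and 48.5 and 47.9 CPM in Sp3-/- 697-2 and 697-5. Ly86, a secreted partner of a toll-like receptor homolog, was at 6.16, 1.93, 2.03 and 2.54 CPM in WT 468-4, 685-2, 697-1 and 697-3, at 0.861, 2.53, 2.01 and 6.76 CPM in Sp3+/- 468-3, 685-5, 685-7 and 697-4, and at 7.98, 34.2 and 21.6 CPM in Sp3-/- 685-1, 697-2 and 697-5.

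Tyrobp and Fcer1g are adaptors that carry immunoreceptor tyrosine-based activation motifs (ITAMs) and signal for Trem2 and for activating Fc receptors, respectively. Trem2, a lipid receptor, was the gene in which WT 468-4 most exceeded Sp3-/- 685-1, at 120 against 68.7 CPM (1.75-fold). It was at 76.2 CPM in Sp3+/- 697-4, 9.25 to 18.1 CPM in the 6 libraries with a suffix, and 218 and 263 CPM in Sp3-/- 697-2 and 697-5. Tyrobp ranged from 13.8 to 389 CPM and Fcer1g from 6.89 to 248 CPM. The high-affinity receptor Fcgr1 ranged from 0.287 to 12.5 CPM, and the low-affinity receptors Fcgr3 and Fcgr2b from 7.24 to 160 and from 1.72 to 96.7 CPM. Fcgr2b, the inhibitory receptor, varied most of the 29 genes, 56.2-fold. Fc receptor genes are related in sequence, and short reads that fit several of them equally well were not counted, which may lower their levels.

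The chemokine receptor Cx3cr1, which marks resident macrophages and their precursors, followed the suffix least. It was at 4.58, 1.38, 2.15 and 4.26 CPM in WT 468-4, 685-2, 697-1 and 697-3, at 1.29, 5.54, 2.83 and 6.27 CPM in Sp3+/- 468-3, 685-5, 685-7 and 697-4, and at 12.3, 26.2 and 12.8 CPM in Sp3-/- 685-1, 697-2 and 697-5. It was the only tested gene in which a library with a suffix (Sp3+/- 685-5) exceeded one without (WT 468-4). All 3 Sp3-/- libraries were above all WT and Sp3+/- libraries.

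Genes shared by most leukocytes behaved like the macrophage markers. Laptm5, a lysosomal membrane protein of blood cells, was at 239, 45.5, 34.9 and 47.4 CPM in WT 468-4, 685-2, 697-1 and 697-3, at 24.03, 35.1, 34.9 and 188 CPM in Sp3+/- 468-3, 685-5, 685-7 and 697-4, and at 206, 649 and 623 CPM in Sp3-/- 685-1, 697-2 and 697-5. Lcp1, an actin-bundling plastin, was at 177 CPM in WT 468-4, 29.1 to 53.1 CPM in the 6 libraries with a suffix, 133 CPM in Sp3+/- 697-4 and 240, 475 and 364 CPM in Sp3-/- 685-1, 697-2 and 697-5. Ptprc, which encodes the leukocyte antigen CD45, ranged from 5.52 to 159 CPM, Cd53 from 7.96 to 348, Cd84 from 6.38 to 239, Cd52 from 0.932 to 17.7 and Coro1a from 3.95 to 30.1 CPM. Aif1, an actin-binding protein of macrophages, was rare, at 1.41, 0.829, 0.609 and 0.385 CPM in WT 468-4, 685-2, 697-1 and 697-3, at 0.574, 0.523, 0.574 and 1.69 CPM in Sp3+/- 468-3, 685-5, 685-7 and 697-4, and at 2.89, 9.64 and 6.86 CPM in Sp3-/- 685-1, 697-2 and 697-5. Its Sp3-/- libraries lay above all others, on 67 to 437 counts.

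**Figure D2:**
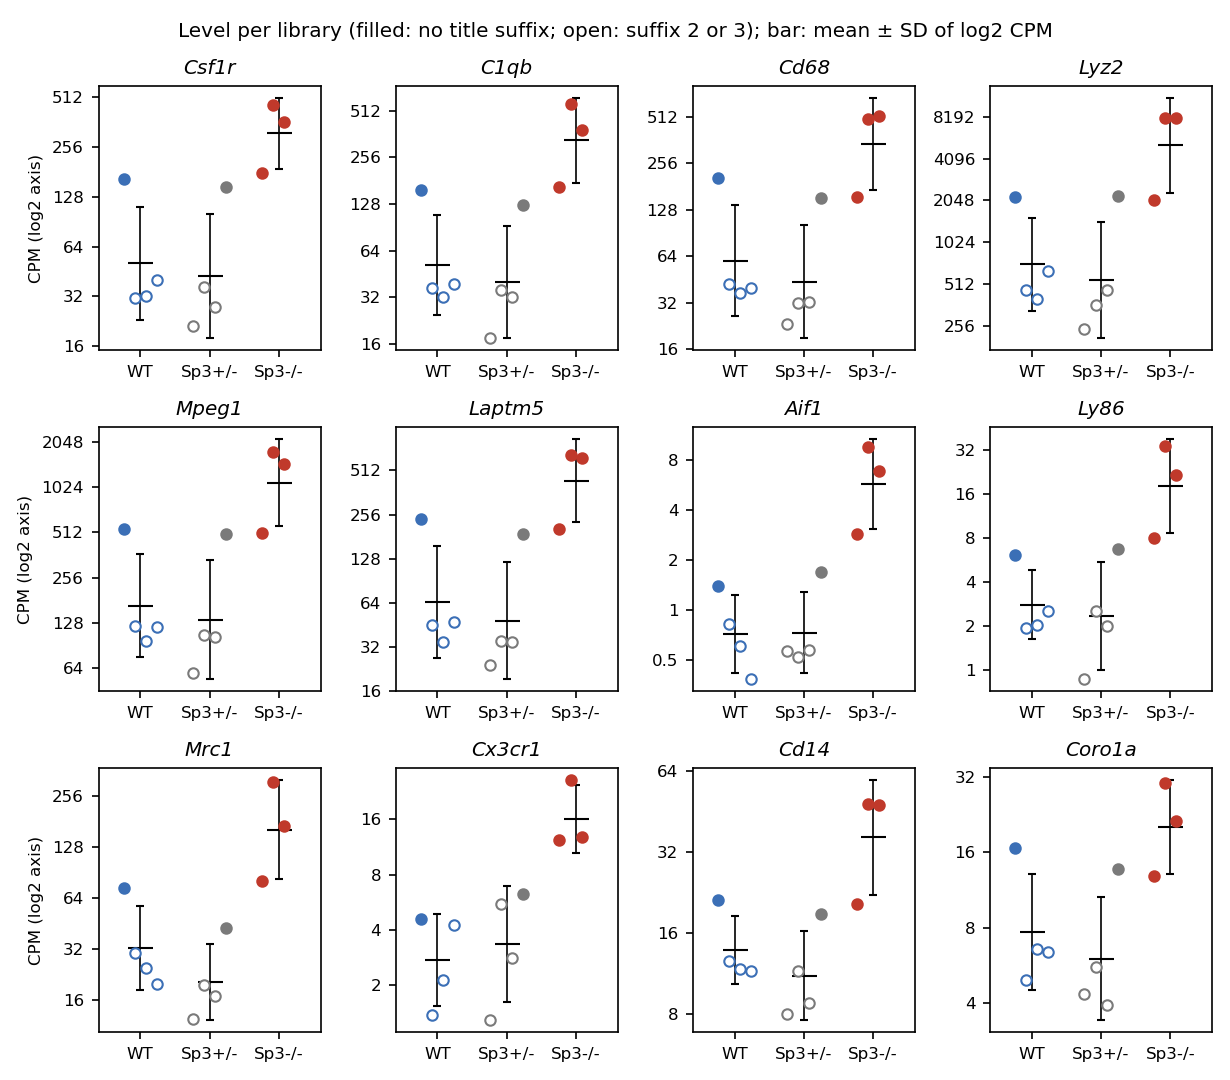
CPM (log2 axis) of 12 genes in each library by genotype, with filled points for libraries without a title suffix, open points for suffix 2 or 3, and a bar at the mean ± SD of log2 CPM (n = 4 WT, 4 Sp3+/-, 3 Sp3-/-). In most panels the filled WT and Sp3+/- points lie near the lowest Sp3-/- point, as for Csf1r at 163, 148 and 179 CPM. For Aif1 (1.41, 1.69 and 2.89 CPM) and Cx3cr1 (4.58, 6.27 and 12.3 CPM) the lowest Sp3-/- point lies farther above them.

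Sp3-/- cultures were compared with WT cultures first, as in the study. Without a term for the suffix, 13 of the 29 tested genes were higher in Sp3-/- (edgeR quasi-likelihood test on the 4 WT and 3 Sp3-/- libraries, adjusted p below 0.05 by Benjamini-Hochberg over 14025 genes) and none was lower, against 8.76% of all tested genes called higher. The 13 were C1qa, C1qb, C1qc, Mrc1, Msr1, Cd14, Ly86, Fcgr1, Cx3cr1, Lyz2, Mpeg1, Lcp1 and Aif1. All 29 had a fold change above 0, with a median log2 fold change of 2.402 (1.31 for Coro1a to 3.00 for Aif1), beside a median of -0.003 over all genes. Aif1 changed most among the called genes (3.00 ± 0.55 SE, adjusted p = 0.0166), followed by Ly86 (2.74 ± 0.59, adjusted p = 0.0247) and Lyz2 (2.73 ± 0.73, adjusted p = 0.0423). Of the 3 markers, C1qb passed (2.50 ± 0.68, adjusted p = 0.0435), whereas Csf1r (2.33 ± 0.67, adjusted p = 0.0501) and Cd68 (2.27 ± 0.74, adjusted p = 0.0688) did not. The Sp3-/- libraries lay above all WT libraries in 11 of the 29 genes, against 14.9% of all tested genes, and in the other 18 WT 468-4 exceeded Sp3-/- 685-1.

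The number called rested on single libraries. It rose to 29 without WT 468-4 (median 3.37), was 14 without Sp3-/- 685-1, and fell to 2 without WT 685-2, WT 697-3 or Sp3-/- 697-5 and to 0 without WT 697-1 or Sp3-/- 697-2, with medians between 2.06 and 2.73 in these fits. Calls over all tested genes moved too, from 2599 with every library to 4179 without 468-4, 766 without 697-1 and 282 without 697-2, so that the swing was not particular to these genes. DESeq2 called 26 and limma-voom 22. Their calls over all genes are not given here, so these counts alone do not set the genes apart. With the suffix as a covariate over all 11 libraries, only Aif1 (2.09 ± 0.53, adjusted p = 0.0356) and Lcp1 (1.05 ± 0.29, adjusted p = 0.0455) were called higher, 2 of 29 against 4.1% of all tested genes, and the median log2 fold change was 1.08. In a fit of WT 468-4 and Sp3-/- 685-1, 697-2 and 697-5 alone, all without a suffix, the median was 1.03. There the single WT library is assumed to vary as the Sp3-/- libraries do. No WT library was without a suffix other than 468-4 and no Sp3-/- library had one, so genotype and suffix can hardly be told apart.

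The 685 and 697 libraries allowed the genotypes to be set side by side within a first title number, with no test. Within 685, the level in Sp3-/- exceeded that in WT by a median of 2.17 on the log2 scale over the 29 genes (1 library each). Within 697 it did so by 3.72 (2 libraries each). All 29 genes were higher in Sp3-/- in both. In both, the Sp3-/- libraries lacked a suffix and the WT libraries had one. Within 697, Sp3-/- 697-2 and 697-5 and Sp3+/- 697-4 all lack a suffix in their titles, and there the Sp3-/- level was higher in all 29 genes, by a median of 1.76. Sp3+/- and WT differed in either direction, by a median of -3.18 within 468, -0.12 within 685 and 1.90 within 697. By their titles, only WT lacked a suffix of these genotypes within 468, and only Sp3+/- within 697. Within 685 the WT and Sp3+/- libraries all had one.

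Sp3+/- cultures did not differ detectably from WT cultures. None of the 29 genes was called (edgeR, all 11 libraries, 14130 genes), against 0% of all tested genes, and none reached an unadjusted p below 0.05, as 246 of all genes did. DESeq2 called none either. The median log2 fold change was -0.29, from -0.70 for Mrc1 to 0.35 for Cx3cr1. The direction of the median followed the libraries that entered the fit, at 0.60 without WT 468-4 and -1.23 without Sp3+/- 697-4. For Csf1r the difference was -0.20 ± 0.72 (SE).

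Sp3-/- cultures were higher than Sp3+/- cultures in 26 of the 29 genes, against 13% of all tested genes called higher, with a median log2 fold change of 2.77. This comparison shares its Sp3-/- libraries with the one above. Aif1 rose by 2.98 ± 0.57 (edgeR adjusted p = 0.0072), Csf1r by 2.52 ± 0.79 (adjusted p = 0.0403) and Cd68 by 2.69 ± 0.83 (adjusted p = 0.0386), while Trem2 (2.70, adjusted p = 0.059), Cybb (2.75, adjusted p = 0.0537) and Cd52 (1.70, adjusted p = 0.0943) did not pass. The count fell to 3 without Sp3-/- 697-2, 4 without Sp3+/- 685-7, 6 without 685-5, and 9 without 468-3 or 697-5. Over all tested genes the calls went from 3607 to 1490, 1887 and 2069 in the first 3 of these fits. For the 29 genes the count was 29 without Sp3+/- 697-4, 23 to 28 without 1 of the remaining libraries, and 3 with the suffix as a covariate (median 1.42).

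Libraries without a suffix were higher than those with one in 25 of the 29 genes after adjustment for genotype (edgeR, 11 libraries), against 5.38% of all tested genes called higher. The median log2 fold change was 2.29, from 0.83 for Cx3cr1 to 2.72 for Trem2. Csf1r was higher by 2.31 ± 0.28 (adjusted p = 0.0062), Cd68 by 2.38 ± 0.32 (adjusted p = 0.0062), C1qb by 2.14 ± 0.35 (adjusted p = 0.0085) and Lyz2 by 2.38 ± 0.41 (adjusted p = 0.0106). Cd14 (0.91, adjusted p = 0.061), Fcgr1 (1.53, adjusted p = 0.0643), Aif1 (1.44, adjusted p = 0.058) and Cx3cr1 (0.83, adjusted p = 0.305) did not pass. In 28 of the 29, every library without a suffix was above every library with one, against 10.3% of all tested genes. The 28 include Lyz1 and Aif1, and the 25 include Lyz1. Both genes were tested only because of the libraries without a suffix, so they add nothing to these counts.

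That contrast is carried by WT 468-4 and Sp3+/- 697-4, since only WT and Sp3+/- hold both kinds of title. Without either of them no member was called (medians 2.23 and 2.20), and no gene at all without 468-4 or 12 genes without 697-4. When 697-4 was placed by the suffix in its file name, none was called. Whether the suffix difference itself differed between WT and Sp3+/- was also tested. This test, added after the data were seen, gave a median of -0.02 on the log2 scale over the 29 genes (-0.61 to 0.49), with 0 of 13833 genes called by edgeR and none of the 29 at an unadjusted p below 0.05, as 471 of all genes were. Each genotype has 1 library without a suffix, so the libraries with one alone supply the spread, and the absence of calls says little about whether the difference is the same.

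**Figure D3:**
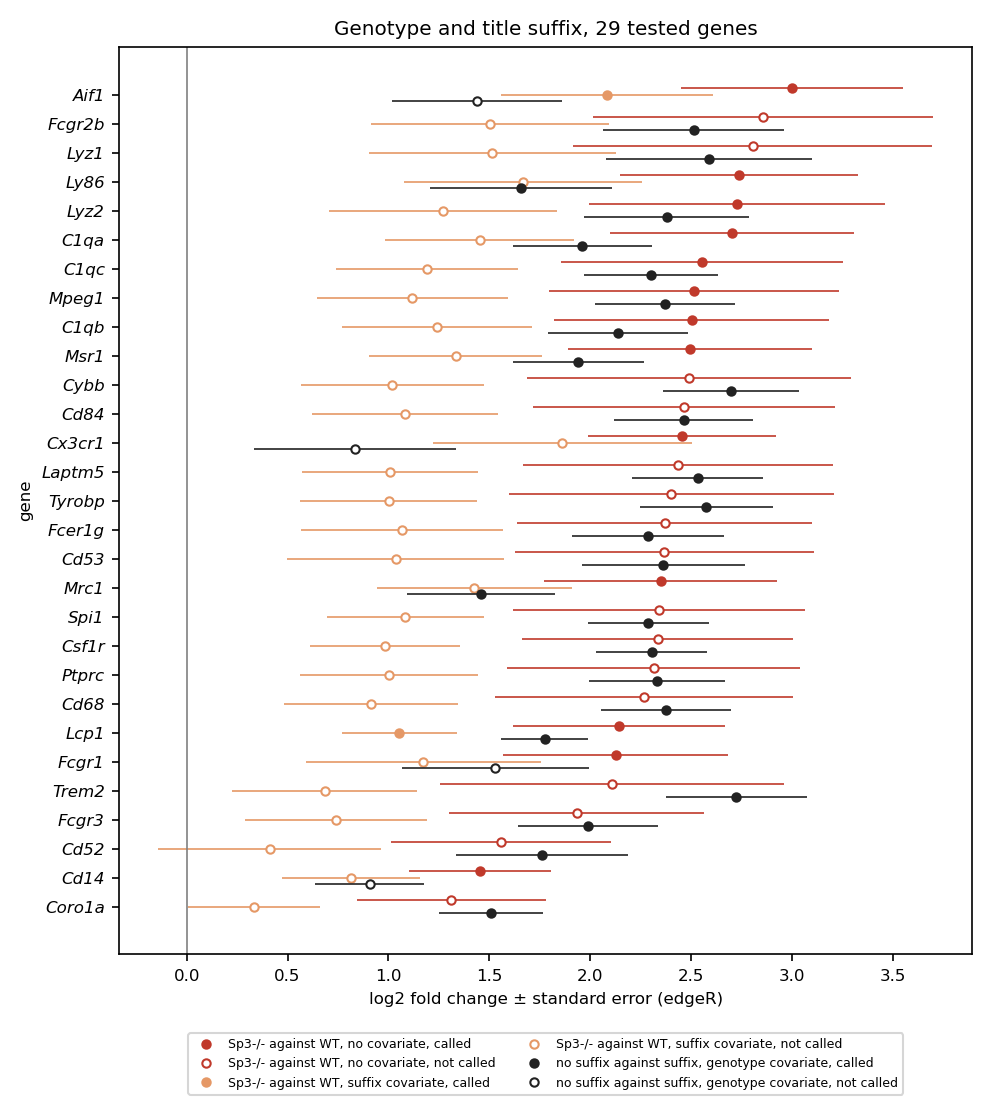
Log2 fold change ± standard error of the 29 tested genes (rows) for Sp3-/- against WT without a covariate (red), the same with the suffix as a covariate (orange) and libraries without a suffix against those with one, adjusted for genotype (black), with filled points for adjusted p below 0.05. The orange points lie below the red for every gene, with medians of 1.08 and 2.402, and only Aif1 and Lcp1 are filled among them.

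Cultures of 1 genotype were far more variable in these genes than in most. The SD of log2 CPM within a genotype had a median of 1.09 over the 29 genes (0.55 to 1.36), against 0.229 over all tested genes, whose 95th percentile was 0.953. The biological coefficient of variation estimated by edgeR was 0.677 at the median of the set and 0.176 at that of all tested genes. For WT and Sp3+/-, both measures take in libraries with and without a suffix together. Csf1r was at 21.2 to 40.1 CPM in the 6 libraries with a suffix, 163 CPM in WT 468-4 and 148 CPM in Sp3+/- 697-4. The 3 Sp3-/- libraries, all without a suffix, ranged from 179 to 458 CPM.

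The ratio of most genes to Csf1r varied less than their level. The log2 level of a gene spanned a median of 4.81 across the 11 libraries, but its log2 ratio to Csf1r in the same library spanned a median of 0.99. In 15 of the 28 other genes the ratio stayed within 1 on the log2 scale, a 2-fold range. Mpeg1 was the most constant, at 2.81 to 4.03 times the CPM of Csf1r. Spi1 (range of the log2 ratio 0.56), C1qc (0.59), Ptprc (0.59) and C1qb (0.60) followed. In 7 genes the ratio spanned over 1.5, namely Mrc1 (1.77), Cd14 (1.93), Fcgr1 (1.62), Cx3cr1 (2.43), Cd52 (1.54), Coro1a (1.81) and Aif1 (1.65). For Cd14 and Coro1a the ratio was lower in every library without a suffix than in every library with one.

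**Figure D4:**
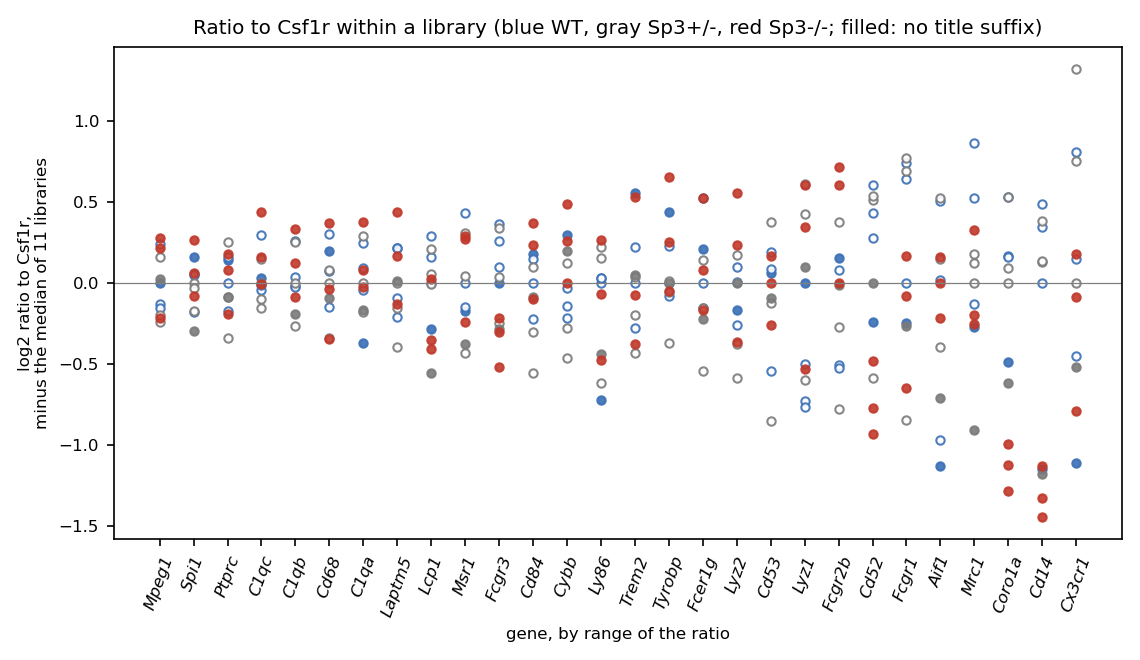
Log2 ratio of each gene to Csf1r in the same library, minus its median over the 11 libraries, with genes ordered by the range of the ratio (blue WT, gray Sp3+/-, red Sp3-/-, filled for libraries without a title suffix). Ratios stay within about 1 for genes on the left such as Mpeg1 and Spi1, and spread to 2.43 for Cx3cr1 on the right, with the filled points of Cd14 and Coro1a at the bottom.

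The libraries fell into separate clusters of Csf1r (21.2 to 40.1 CPM with a suffix, 148 to 458 CPM without), so that no correlation over all 11 was drawn. Within the 6 libraries with a suffix, the median Pearson r of the 28 other genes with Csf1r was 0.82 and the median Spearman rho 0.686, with 26 of 28 r values above 0. None passed an exact permutation test after adjustment over the 28 genes (lowest adjusted p = 0.0583). Without 468-3 and 697-3, the libraries farthest from the median of Csf1r, the median r was 0.099, and the relation rested on those libraries.

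Outside the set and the other lists, the 10 genes whose deviations from the genotype means most resembled those of Csf1r over the 11 libraries were Nfam1, Hcls1, Myo1f, Tbxas1, Card9, Prkcb, Fermt3, Lair1, Arhgap30 and Itgb2, with r from 0.986 to 0.995. This is a description, since WT 468-4 and Sp3+/- 697-4 give these deviations most of their range. Itgb2, the common chain of the leukocyte integrins, was at 96.6 CPM in WT 468-4, 64.3 CPM in Sp3+/- 697-4, 12.3 to 20.4 CPM in the libraries with a suffix and 89.6, 251 and 232 CPM in Sp3-/- 685-1, 697-2 and 697-5.

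The ligands of Csf1r did not pass the test in any of these comparisons. Csf1, the main ligand of Csf1r, was at 614, 521, 524 and 840 CPM in WT 468-4, 685-2, 697-1 and 697-3, at 534, 600, 551 and 867 CPM in Sp3+/- 468-3, 685-5, 685-7 and 697-4, and at 556, 538 and 453 CPM in Sp3-/- 685-1, 697-2 and 697-5. It was thus abundant in every culture, and Sp3-/- did not differ from WT by the test (-0.27 ± 0.19, edgeR adjusted p = 0.339). Il34, the second ligand, lay between 0.547 and 2.11 CPM. Csf2 and Csf3 stayed below 1 CPM in every library. Of the 6 tested genes of growth factors and their receptors, 2 receptors were called higher in Sp3-/- against WT, beside 8.76% of all tested genes. They were Csf2ra (1.72, edgeR adjusted p = 0.0304) and Csf3r (3.09, adjusted p = 0.0354). With the suffix as a covariate 0 were called, beside 4.1% of all tested genes called higher. Csf2rb, the shared chain of cytokine receptors, had a log2 fold change of 2.13 (adjusted p = 0.0903), and Csf2rb2, its close copy, 2.25 (adjusted p = 0.0811).

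Genes that work with the set were counted by list, in Sp3-/- against WT without the suffix as a covariate, where 8.76% of all tested genes were called higher, and then with it, where 4.1% were. Of 15 tested myeloid transcription factors, 8 were called higher and none lower, with a median log2 fold change of 1.18. With the covariate 2 were, Maf (1.43, edgeR adjusted p = 0.0063) and Irf5 (1.85, adjusted p = 0.0097). Of 11 tested genes of ITAM and Fc receptor signaling, 6 were called higher (median 2.17) and 0 with the covariate. None of the 5 partners of the phagocyte oxidase was called in either fit, at a median of 2.07 without the covariate. These lists were drawn up with results of these data known.

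Markers of macrophage states were uneven, beside 8.76% of all tested genes called higher without the covariate and 4.1% with it. Of 8 tested markers of resident fetal macrophages, 4 were called higher (median 1.25), among them Stab1, a scavenger receptor (2.90, edgeR adjusted p = 0.0166), and 0 with the covariate. F13a1, Timd4 and Clec10a stayed below 1 CPM in every library. Of 10 alveolar macrophage genes, 6 stayed below 1 CPM in every library, among them Siglec5 and Chil3, and 2 of the 4 tested were called higher, Olr1 (2.67, adjusted p = 0.0073) and Plet1, both also with the covariate. Plet1 was at no more than 0.484 CPM in WT and at 5.63 to 21.2 CPM in Sp3-/- libraries, and was tested only because of the latter. Of 8 monocyte genes, 4 stayed below 1 CPM, Ly6c2 among them, and Hp, at up to 0.276 CPM in WT and 0.307 to 6.73 CPM in Sp3-/- libraries, was likewise tested only because of the group in which it was called higher. With the covariate, Itgal was called higher and Plac8 lower. Of 10 tested genes of activated and lipid-laden macrophages, 3 were called higher and 0 with the covariate. Apoe, a lipid carrier, was among them (3.14, adjusted p = 0.0446), while Gpnmb had 2.42 (adjusted p = 0.0617). Mmp12, the macrophage elastase, did not follow the genotype (-0.14, adjusted p = 0.919), and was higher in WT 468-4 (328 CPM) than in Sp3-/- 685-1, 697-2 and 697-5 (46.1, 94.5 and 187 CPM). It was higher without a suffix than with one (2.55, adjusted p = 0.0081). Plac8, listed as a monocyte gene, went the other way, at 46.8 to 143 CPM in WT and 4.37 to 14.5 CPM in Sp3-/- libraries (-3.09, adjusted p = 0.0156).

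Most markers of other leukocytes stayed near or below the limit of the test. Over all tested genes, 8.76% were called higher in Sp3-/- against WT, and 1370 of 14025 lower. With the covariate 4.1% were called higher, and 879 of 14130 lower. In 13 of 14 lymphocyte genes, 7 of 8 mast cell and basophil genes and 7 of 9 neutrophil genes, no library reached 1 CPM. The summed CPM of the neutrophil genes was 0.118 to 0.375 with a suffix and 0.946 to 4.10 without. The 2 tested, S100a8 and S100a9, reached 1 CPM only in libraries without a suffix, so that a difference was built into their being tested. The 1 mast cell gene tested, Ms4a2, was called lower in Sp3-/- than in WT (-2.11, adjusted p = 0.0068), also with the covariate. None of 4 tested dendritic cell and MHC class II genes was called. Of 14 erythroid genes, 12 stayed below 1 CPM, 5 globin genes among them were listed at 0 in every library, and Alas2 was called higher, though not with the covariate. Reads without a unique alignment, 30.1% to 33.7% of a library, were not counted on genes, so a listed 0 does not show that RNA was absent. Of 12 tested endothelial genes, 2 were called higher and 1 lower in Sp3-/- against WT and 0 with the covariate, with a summed level of 45.6 to 104 CPM with a suffix and 75.1 to 146 CPM without. Of 7 tested epithelial genes, Krt18 was called higher in both fits (1.73 without the covariate, adjusted p = 0.0235), while Epcam and Cdh1 were tested only because of the Sp3-/- libraries in which they were high. The epithelial list summed to 24.6 to 50.3 CPM with a suffix and 32.1 to 177 CPM without. Of the 12 mesenchymal markers, 4 were called lower in Sp3-/-, Pdgfrb, Tbx5, Foxf1 and Vim. With the covariate, Pdgfrb and Vim were lower and Tcf21 higher, and Pdgfra and Pdgfrb were lower in libraries without a suffix. Their part in the results for the macrophage genes was not tested.

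**Figure D5:**
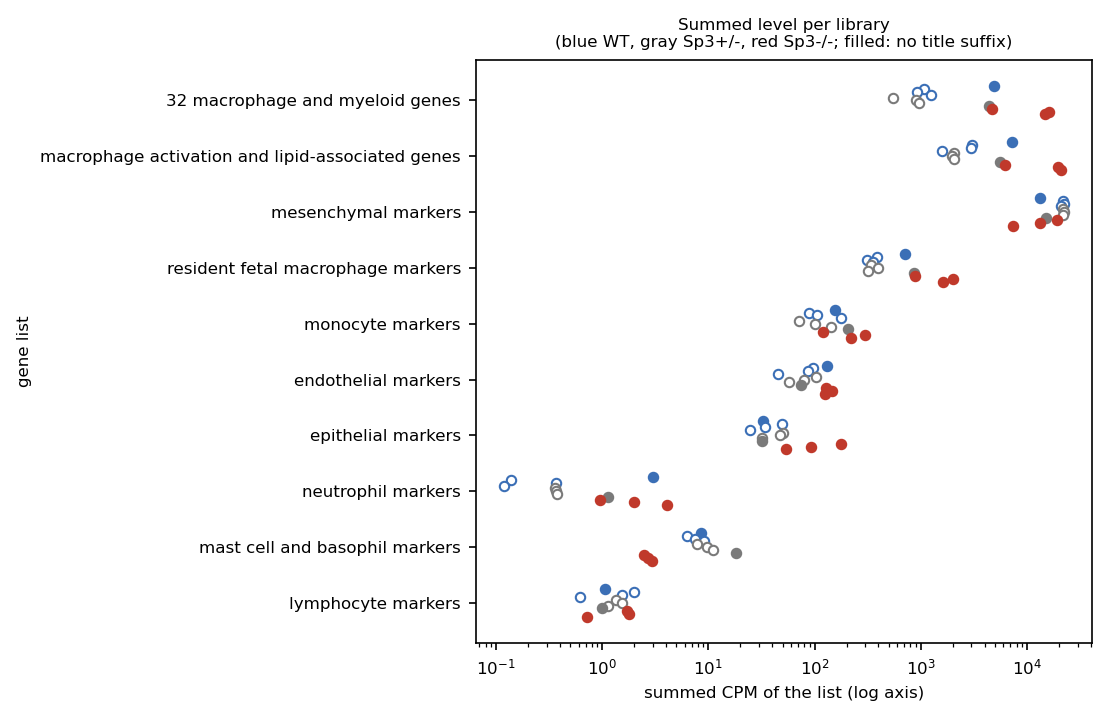
Summed CPM (log axis) of the 32 genes and of marker lists of other states and cell types in each library (blue WT, gray Sp3+/-, red Sp3-/-, filled for libraries without a title suffix). The 32 genes and the activation list are high in filled points, mesenchymal markers are lower in them (7315 to 19053 against 20937 to 22323 CPM), and lymphocyte, mast cell and neutrophil sums stay low throughout.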

How the data were processed

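RNA from 11 cultures of E15 fetal lung mesenchymal cells had been sequenced by the authors as single-end reads of 50 bases from TruSeq libraries. Per the labels and the study's methods, the authors checked reads with FastQC 0.10.1, aligned them with STAR 2.4.5a to mm10, and used htseq-count for gene totals. The deposited values are whole-number counts per gene symbol with no normalization, so that every fold change depends on the scaling chosen here. The annotation version and strand setting are not given in the sources used here, and with no strand, reads of a gene and an overlapping gene cannot be told apart. The 5 tallies of reads outside genes (38.4% to 40.9% of a library) were left out.

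Groups were taken from the genotype labels. The 32 genes and all lists were chosen with earlier results of these data known. The test was that of edgeR 4.0.16, on genes exceeding 1 CPM in any of the libraries fitted (TMM, estimateDisp, robust glmQLFit, glmQLFTest, R 4.3.3), with Benjamini-Hochberg adjustment over all genes tested and calls at 0.05. Sp3-/- against WT used 7 libraries and the other comparisons 11. A standard error is the log2 fold change over the root of its F statistic. The study describes limma-voom with a consensus correlation, which was run as an alternative with limma 3.58.1, besides DESeq2 1.42.0, other scalings and filters, the first title number as a block, the suffix as a covariate, and each library left out in turn. The scripts were tested on simulated data. Depth ranged from 9849111 to 59297495 reads on genes.

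All 32 genes are named. Values in every library are given for Csf1r, C1qb and Cd68, the 3 genes of highest mean log2 CPM (Lyz2, Mpeg1, Laptm5), the 3 called genes with the largest change (Aif1, Ly86, Lyz2) and others whose role is described. Of other lists, the most abundant genes and called genes with large changes are named, and further genes were chosen after their values were seen (Mmp12, Plac8, Stab1, Maf, Irf5). Symbols absent from the files were matched by synonyms (Siglec5 for Siglecf). Transcript lengths are those of canonical transcripts of GENCODE M39, positions and promoters those of RefSeq on GRCm38.p6.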

Additional observations from a re-analysis of the deposited data

Results flagged for a closer look

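The values below were picked out because 1 of the 4 libraries of a genotype lay far from the other 3, with a gap to the nearest library that exceeded 0.829 of the whole range of log2 CPM. WT 468-4 was the high library, with a ratio of 0.886 for C1qb, 0.846 for Csf1r, 0.923 for Cd68, 0.869 for Mpeg1, 0.841 for Laptm5 and 0.913 for Lcp1, and 0.837 for the log2 share of reads on the 32 genes. Sp3+/- 697-4 was the high library with 0.829 for Cd68, just past the limit, and 0.924 for Aif1. Over the 29 tested genes, 468-4 stood apart in 16 and 697-4 in 3. How often they did so over all genes is not given here, so these counts alone do not set the 29 genes apart. Chance alone picks out about 1 group in 20, and the genes vary together, so that these are not independent cases. Both libraries lack a title suffix.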

How the results depend on the processing

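Leaving out each library in turn moved the number of genes called between 0 and 29 in Sp3-/- against WT (medians 2.06 to 3.37), between 3 and 29 in Sp3-/- against Sp3+/- (2.38 to 3.70) and between 0 and 28 without a suffix against with one (2.20 to 2.37). Calls over all tested genes moved as well, in Sp3-/- against WT from 282 without Sp3-/- 697-2 to 4179 without WT 468-4. For most refits below, calls over all genes are not given, so the counts alone do not set the 29 genes apart. In Sp3-/- against WT, the 13 calls became 26 with DESeq2, 22 with limma-voom, 25 with limma-voom and a consensus correlation, 7 with every gene with a count, 2 with the suffix as a covariate, and 0 with 697-4 placed by its file name or with only libraries without a suffix. The median log2 fold change was 1.08, 1.04 and 1.03 in these last 3 fits. In Sp3-/- against Sp3+/-, the 26 calls became 11 with every gene with a count, 3 with the suffix, and 0 with 697-4 placed by its file name or without suffixed libraries, with medians of 1.42, 0.44 and 1.42 in the last 3. With the first title number as a replicate block, 29 genes were called in Sp3-/- against WT (median 3.25), 23 against Sp3+/-, and 0 without a suffix against with one, where placing 697-4 by its file name also gave 0. The labels do not say what that number marks. Deviations from the genotype means correlated between -0.62 and 0.34 in 14 pairs that share it, above 0.1 in each of the 5 pairs within 685 but not throughout 468 and 697, and 2 of 11 libraries correlated best with a library of their own number. Library size alone, the upper quartile and filterByExpr kept each count within 1.5 times, and no count or median changed direction for a called comparison. The causes were not tested. Of 738 refits of single genes, 564 kept their side of the threshold, 156 lost a call and 18 gained 1, with no called gene changing direction. The shares of reads without the 100 most counted other genes and a prior count of 0.5 left their results alike. Depth limits Cd163, Ccr2, Cd74, Lyz1 and Aif1 most.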
